A study of Arvicanthis niloticus with 28 samples.

Results

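The genes described here are 10 transporters and receptors of the blood-retina barrier, measured in the retinal vasculature of 28 Nile rats. They are Slc2a1, Mfsd2a, Slco1c1, Slco1a4, Abcb1a, Abcg2, Slc7a5, Slc3a2, Slc16a1 and Tfrc, listed by name for their known place in the barrier; no value enters the rule, but the list was drawn up with earlier results of these data known. All 10 were found among the 18970 genes of the deposited tables, and each had counts in all 28 libraries, which held for 4052 genes (21.4%). The Nile rat (Arvicanthis niloticus) is a diurnal rodent that can become diabetic on an energy-rich diet. All animals were wild type and untreated apart from diet, for which the study's methods name a high-fiber and a high-caloric chow. From the retinal vessels of each animal 1 RNA-seq library was made. The labels give the sex, the density of acellular capillaries (vessel tubes without nuclei, counted per mm2) and the random blood glucose of each rat, but not its age or diet. The pre-dropout group held the 4 rats at 17.1 to 17.9 acellular capillaries per mm2, all male, and the normal group held 24 rats at 5.90 to 14.5 per mm2, 8 males and 16 females. Glucose lay between 52.0 and 147 mg/dL in 23 rats and between 226 and 443 mg/dL in 5 rats, of which 2 were pre-dropout rats and 4 were males.

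The inner blood-retina barrier is formed by endothelial cells that are sealed by tight junctions and show little transcytosis. Nutrients therefore cross it on carriers and receptors, while efflux pumps return drugs and other lipophilic compounds to the blood. The same set of proteins is a hallmark of the blood-brain barrier, where most of them were first studied.

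The libraries held between 153108 and 10029198 counts, and 2 normal rats, T410F and T448M, lay under 1e+06. Some markers of the capillary wall had counts in every library. Mean levels were 26479 TPM for Cldn5, 716 TPM for Cdh5, 568.4 TPM for Pecam1 and 7037 TPM for the pericyte marker Rgs5. Other pericyte markers were lower, with 110.5 TPM for Pdgfrb and 28.1 TPM for Cspg4, and Higd1b and Atp13a5 had counts in only 14 and 23 libraries. Markers of other cells varied widely among rats, and the summed level of 12 rod genes ran from 161 to 7795 TPM. In such bulk samples, fewer cells of a type and less RNA per cell cannot be told apart.

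All 10 transporters were abundant, and together they took 0.335% of TPM in the median library (range 0.191% to 0.523%). TPM is a level per transcript length, so an order of genes by TPM rests on the lengths assigned to them. How far it does so was not tested. By mean CPM (counts scaled by library size, not divided by length), Slc2a1 (1810) and Abcb1a (1352) came before Slco1a4 (975). By TPM Slco1a4, a carrier of organic anions and steroid conjugates, stood first with 978 ± 400 TPM (SD, n = 28). This was rank 80 of 18970 genes. Slc16a1, which encodes the lactate, pyruvate and ketone body carrier MCT1, followed with 562 ± 264 TPM.

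Next came the glucose carrier GLUT1, encoded by Slc2a1, with 389.04 ± 139 TPM, and the thyroid hormone carrier gene Slco1c1 with 357 ± 127 TPM. Abcb1a, the gene of the efflux pump P-glycoprotein, had 296 ± 128 TPM. The chains of the large neutral amino acid carrier LAT1 differed in level, with 250 ± 71.7 TPM for the heavy chain gene Slc3a2 and 162 ± 71.0 TPM for the light chain gene Slc7a5. The heavy chain also pairs with other light chains.

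At the lower end stood Mfsd2a, which carries lysophosphatidylcholine with docosahexaenoic acid and restrains transcytosis, with 103 ± 36.0 TPM. The efflux pump gene Abcg2 had 76.2 ± 31.5 TPM and the transferrin receptor gene Tfrc had 72.8 ± 31.6 TPM, rank 2077. Neighbours in this order were compared within rats (sign-flip permutation test on log2(TPM + 1), two-sided, adjusted over 9 pairs). Of the 9 steps, 6 differed. The steps from Slc2a1 to Slco1c1 (adjusted p = 0.146, Slc2a1 higher in 17 of 28 rats), from Abcb1a to Slc3a2 (adjusted p = 0.125, 17 of 28) and from Abcg2 to Tfrc (adjusted p = 0.604, 15 of 28) did not pass the test.

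**Figure D1:**
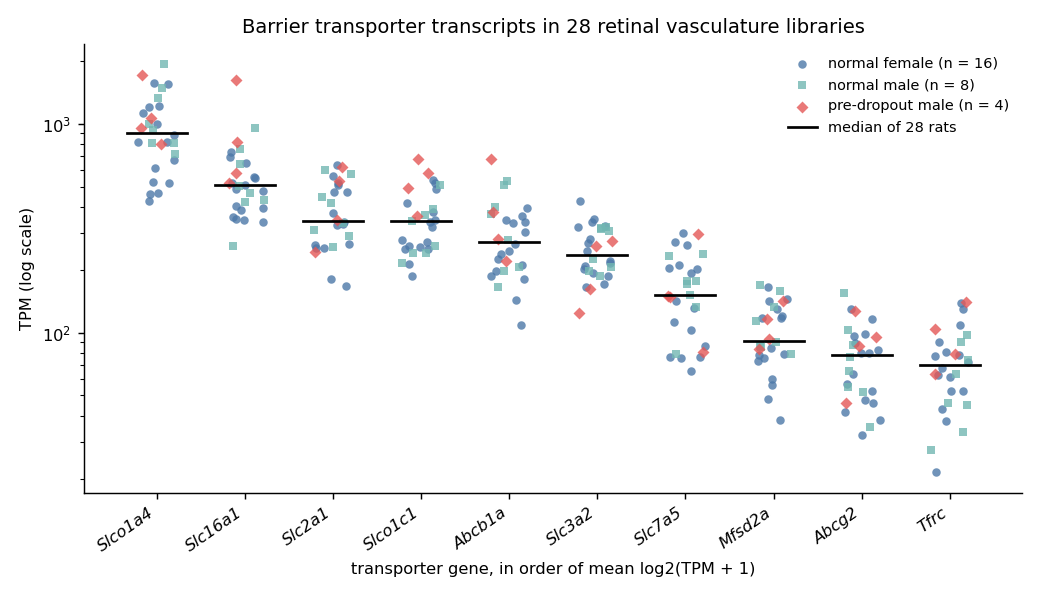
TPM of the 10 transporter genes on a log axis, with 1 point per rat (circles, normal females, squares, normal males, diamonds, pre-dropout males) and a bar at the median of 28 rats. Slco1a4 lies highest with a median of 908 TPM and Tfrc lowest with 70.1 TPM, and the highest Slc16a1 value, 1627 TPM, belongs to a pre-dropout rat.

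Each transporter varied several-fold between rats. The highest TPM was 3.46 times the lowest for Slc3a2 and 6.54 times for Tfrc, and the other 8 genes lay between these. The coefficient of variation ran from 0.287 for Slc3a2 to 0.469 for Slc16a1.

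Reads of related paralogs may limit what can be said of 2 of the 10 genes. Abcb1a held a median of 92.1% of the TPM of Abcb1a and Abcb1b (83.3% to 96.4% over rats). Slco1a4 held 55.4% of the TPM of the Slco1a genes, beside 30.6% for Slco1a5 and 7.23% for Slco1a1. In CPM, which is not divided by length, Slco1a4 did not lead, with a mean of 975 beside 988 for Slco1a5 and 54.0 for Slco1a1. Abcb1a led in CPM as well, with a mean of 1352 beside 97.5 for Abcb1b. The tables carry mouse symbols, and Slco1a4 and Abcb1a are the members whose symbols do not occur in the RefSeq annotation of the Nile rat, while the other 8 do. How reads were divided among these paralogs cannot be seen from the tables, so the levels of Slco1a4 and Abcb1a are uncertain.

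Most of the transporters varied together from rat to rat. Over the 45 pairs, Pearson's r of log2(TPM + 1) over 28 rats was above 0 in 42, with a median of 0.46. With 100000 permutations, 26 pairs had an adjusted p under 0.05 by Pearson's r and 22 by both Pearson's r and Spearman's rho. Pairs of other genes were not counted in this way, so these counts cannot be called particular to the transporters. The r was above 0 in 40 pairs with the 2 farthest rats left out, in 43 pairs within the 12 males and in 34 within the 16 females. All values of a rat come from the same library and are shares of it, so a pair can move together through depth or cell content.

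The closest group was formed by Slco1a4 and the efflux pumps. Slco1a4 and Abcg2 had r = 0.84 (rho = 0.88, both permutation p = 1e-05, the smallest that 100000 permutations can give, adjusted p = 9e-05 for r), with 0.83 after the 2 farthest rats were left out, 0.82 in males and 0.89 in females. Abcb1a had r = 0.82 with Abcg2 and 0.82 with Slco1a4. Slc2a1 followed them, with r between 0.74 and 0.76 for the same 3 genes.

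The chains of LAT1 were also linked. Slc7a5 and Slc3a2 had r = 0.69 (rho = 0.66, permutation p = 5e-05 and 0.00022, adjusted p = 0.000281), with 0.69 without the 2 farthest rats, 0.52 in males and 0.85 in females. The ratio of Slc7a5 to Slc3a2 TPM was 0.626 in the median rat, 0.304 in T398F at the lowest and 1.15 in T353M at the highest.

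Slc16a1 and Tfrc stood apart. The median r of their 9 pairs was 0.17 for Slc16a1 and 0.10 for Tfrc, against 0.67 for Slc2a1. As a description over 28 rats, the log2 CPM of a transporter followed the mean of 15 endothelial markers with a median r of 0.80, from 0.20 for Tfrc and 0.53 for Slc16a1 to 0.92 for Slc2a1. The same values against microglial, pigment epithelial and rod markers had medians of -0.69, -0.65 and -0.50. These libraries share depth and composition, and the part of cell content in these relations was not tested.

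**Figure D2:**
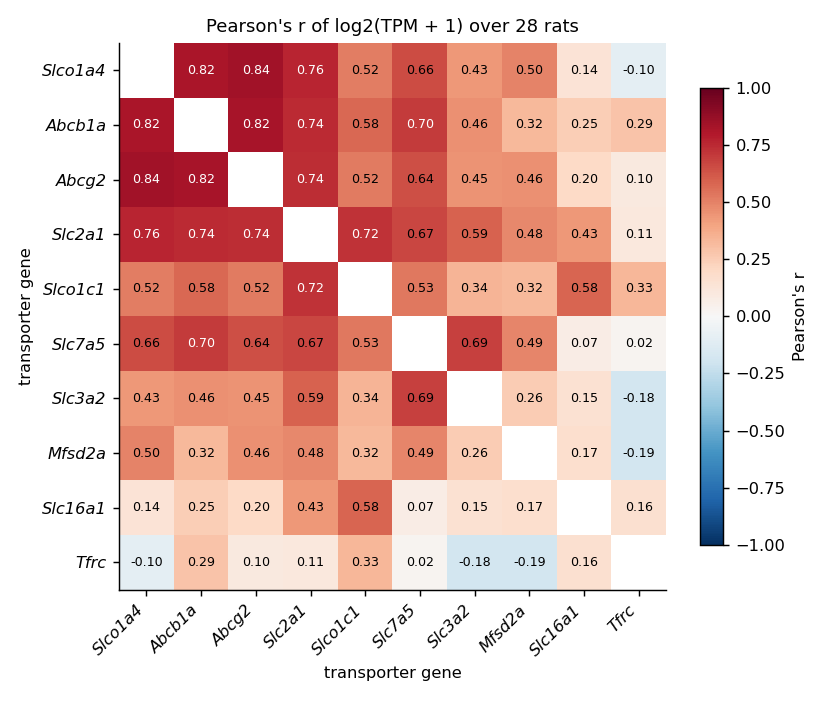
Pearson's r of log2(TPM + 1) over 28 rats for each pair of the 10 transporter genes, on a scale from -1 (blue) to 1 (red). The block of Slco1a4, Abcb1a, Abcg2 and Slc2a1 holds values of 0.74 to 0.84, and the 9 values of Tfrc have the lowest median, 0.10.

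The genes whose pattern was most like that of each transporter were taken from 5769 genes with enough counts, by Pearson's r of log2 CPM over 28 rats, as a description. For Slc2a1 the nearest was Srgn (r = 0.91), followed by Cldn5 (0.91). Slco1a4 lay nearest to Tek (0.90) and Abcb1a to Adgrf5 (0.93), both genes of endothelial cells. Abcg2 lay nearest to Slco1a4 itself (0.89) and Slco1c1 to Cd93 (0.82).

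For Slc7a5 it was Abhd2 (0.87), for Slc3a2 Tgm2 (0.76), for Mfsd2a Eif3f (0.86) and for Tfrc Rasal2 (0.75). The nearest gene to Slc16a1 was Bsg (r = 0.66), which encodes basigin, the chaperone that brings MCT1 to the cell surface. On log2(TPM + 1) the pair had r = 0.56 (rho = 0.49, permutation p = 0.00162 and 0.00942), with 0.43 without the 2 farthest rats, 0.68 in males and 0.24 in females.

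Setting pre-dropout against normal rats asks whether the vessels differ in expression before capillary loss becomes frequent. None of the 10 transporters was called in it. Levels are given here as CPM, counts scaled by TMM to a common library size and expressed per 1e+06 counts. In edgeR's quasi-likelihood test a gene was called where it changed by more than 2-fold with an adjusted p under 0.05. Over all genes the same test called 0 of 13800 (0.00%), with 394 at an unadjusted p under 0.05, while DESeq2 called 7 genes and limma-voom 4, none of them a transporter. The log2 fold change was above 0 for 9 of the 10, with a median of 0.23, against 41.1% of all genes and a median of -0.13. With DESeq2's size factors 8 of the 10 were above 0, against 43.9% of all genes. With limma-voom and sample weights, which give less weight to libraries that fit the model poorly, the median was 0.66 for the 10 genes and -0.13 for all genes.

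The carriers of lactate and of thyroid hormone had the largest fold changes. Slc16a1 was at 826, 3117, 1373 and 1017 CPM in the pre-dropout rats T353M, T389M, T391M and T407M, and its lowest, median and highest values in the normal rats were 471, 754 and 1710 CPM. All 4 lay above the normal median and 1, T389M, above the highest normal rat. The log2 fold change was 0.85 (SE 0.28, edgeR p = 0.00475, adjusted p = 1.0), the 7th smallest p of 13800 genes. With limma-voom and sample weights it was 1.05 (SE 0.23, limma adjusted p = 0.071). Without T389M it was 0.33 (SE 0.33) in edgeR, and with blood glucose as a covariate it was 0.30 (SE 0.29).

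Slco1c1 was at 618, 713, 532 and 454 CPM in the same 4 rats, against 176, 338 and 585 CPM as the lowest, median and highest normal values. Again all 4 lay above the normal median, and 2 lay above every normal rat. The log2 fold change was 0.69 (SE 0.27, edgeR p = 0.0132, adjusted p = 1.0) and lay between 0.48 and 0.93 under the 16 other settings, with the highest from limma-voom with sample weights (limma adjusted p = 0.086).

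Tfrc, through which iron enters the endothelium, was at 297, 225, 261 and 186 CPM, all above the normal median of 155 CPM, with 3 normal rats above them all. Tfrc is also a gene of young red cells, and all 4 erythrocyte markers tested were above 0 in the same comparison (median 0.74), with summed levels of 2783 to 17789 TPM in pre-dropout and 166 to 24043 TPM in normal rats, and none was called. Their part in the level of Tfrc was not tested. Abcb1a was at 2594, 1939, 1270.4 and 1161 CPM against a normal median of 1165 CPM. Their log2 fold changes were 0.51 (SE 0.32) and 0.43 (SE 0.31). The groups overlapped for every one of the 10 genes.

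For the glucose carrier gene Slc2a1 the pre-dropout rats, at 2393, 2786, 1593 and 1302 CPM, lay on both sides of the normal median of 1829 CPM, with a log2 fold change of 0.16 (SE 0.31). Slco1a4, Abcg2, Mfsd2a and Slc7a5 had values of 0.24, 0.22, 0.08 and 0.00 (SE 0.34 to 0.37). With limma-voom and sample weights the values were larger, at 0.60 for Slc2a1, 0.75 for Slco1a4, 0.80 for Abcg2 and 0.72 for Abcb1a (SE 0.20 to 0.27, limma adjusted p = 0.30 to 0.44). Slc3a2 alone was below 0, at -0.33 (SE 0.29), with 295, 419.1, 217 and 195 CPM against a normal median of 326 CPM. The ratio of Slc7a5 to Slc3a2 had a median of 0.788 in the pre-dropout and 0.590 in the normal rats, a difference that did not pass an exact permutation test over 20475 splits (p = 0.114, adjusted p = 0.605 over 10 ratio comparisons).

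All pre-dropout rats were male, and within the normal group 9 of the 10 genes had a higher mean in males than in females. With sex as a covariate 5 of the 10 genes were above 0, with a median of 0.02, against 48.5% of all genes. Within the males 5 of 10 were above 0, with a median of -0.00, against 46.9% of all genes. In these fits Slc16a1 was at 0.64 and 0.65 (SE 0.33 and 0.36), and Slco1c1 at 0.64 and 0.64 (SE 0.32 and 0.31). Beside these values, 13 of 15 endothelial markers were above 0 in pre-dropout rats (median 0.24), with summed levels of 4836 to 9113 TPM against 2711 to 8652 TPM. With the mean of these markers as a covariate 4 of the 10 transporters were above 0, against 50.7% of all genes. Of the rod markers, 11 of 12 were below 0, with summed levels of 337 to 1326 TPM against 161 to 7795 TPM, and of the pericyte markers 8 of 10 were below 0 (median -0.42), with 2532 to 15299.8 TPM against 2559 to 15118 TPM.

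**Figure D3:**
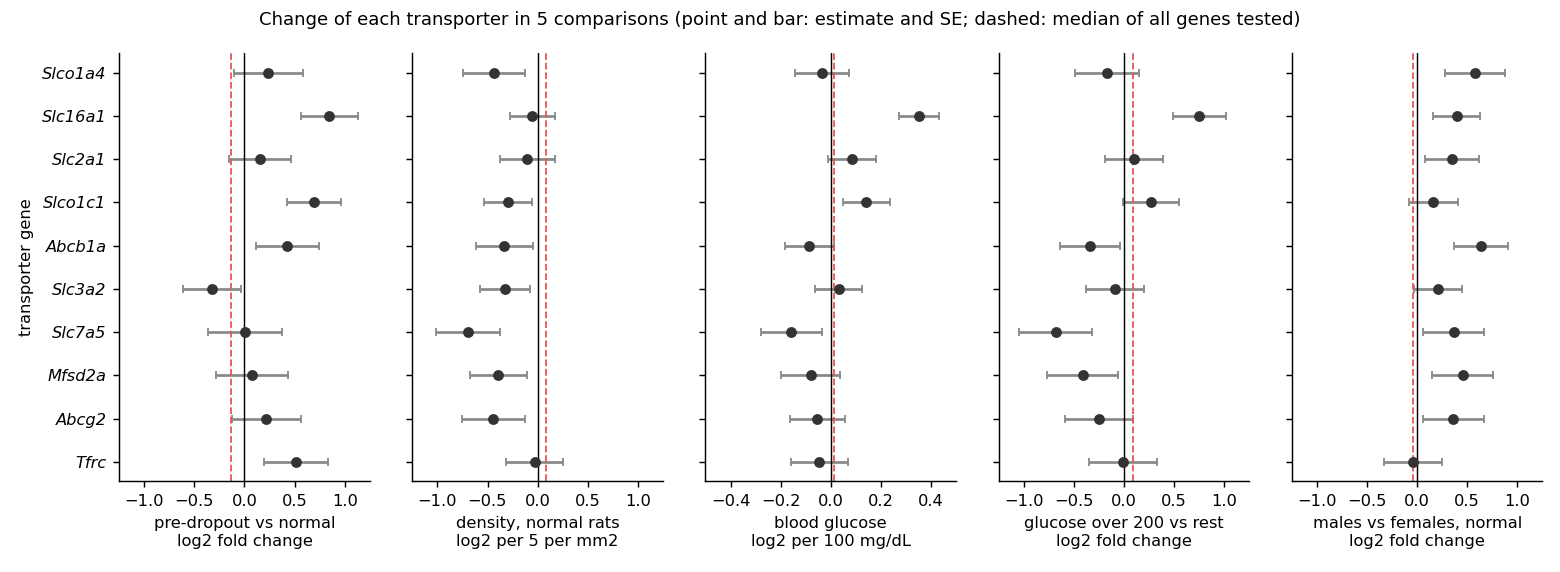
Log2 change of each transporter gene (point) with its SE (bar) from edgeR in 5 comparisons, with a dashed line at the median of all genes tested; the panel of blood glucose has a narrower axis. Slc16a1 lies at 0.85 for pre-dropout rats and at 0.35 per 100 mg/dL of glucose, and all 10 genes lie below 0 for density within normal rats.

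Within the normal range of density no transporter passed the test, and the LAT1 light chain gene Slc7a5 had the smallest p of the 10. The slope on density, given per 5 acellular capillaries per mm2 over the 24 normal rats with sex as a covariate, was below 0 for all 10 genes, with a median of -0.33, against 56.3% of all genes above 0 and a median of 0.09. On log2(TPM + 1) 2 of the 10 slopes were above 0, against 62.5% of all genes. None was called by edgeR, which called 0 of 13677 genes (0.00%), with 153 at an unadjusted p under 0.05, and DESeq2 and limma on log2 TPM also called 0.

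Slc7a5 had the steepest slope, -0.70 (SE 0.32, edgeR p = 0.0355, adjusted p = 1.0). Its level in the normal rats ran from 104 CPM in T398F, the rat with the highest normal density, over a median of 261 CPM to 569 CPM in T424M. Abcg2 and Slco1a4 had slopes of -0.44 and -0.43 (SE 0.31 each), and Slc16a1 and Tfrc had slopes of -0.05 and -0.03 (SE 0.23 and 0.28).

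In the same fit 13 of 15 endothelial markers were below 0, with a median of -0.28, 10 of 10 pericyte markers were below 0, with a median of -0.29, and 11 of 12 rod markers were above 0, with a median of 1.30. The part of these cells in the slopes of the transporters was not tested.

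**Figure D4:**
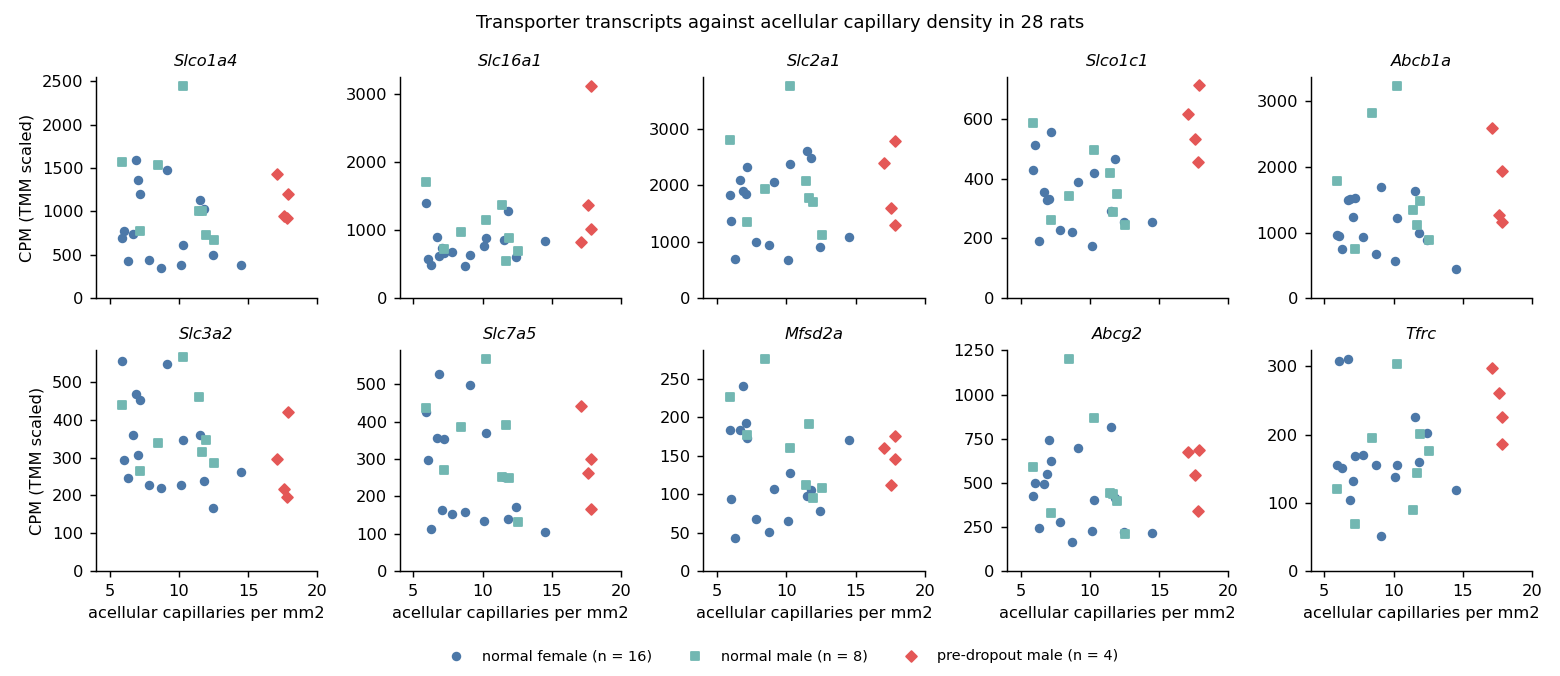
CPM of each transporter gene against acellular capillary density, with 1 point per rat (circles, normal females, squares, normal males, diamonds, pre-dropout males). The 4 pre-dropout rats at the right overlap the normal rats for each gene, and the highest values of Slc16a1, 3117 CPM, and Slco1c1, 713 CPM, are among them.

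Of the 10 genes Slc16a1, the lactate and ketone body carrier gene, had the largest slope on blood glucose, which did not pass the adjustment over all genes. Its slope was 0.35 on the log2 scale per 100 mg/dL over 28 rats with sex as a covariate (SE 0.08, edgeR p = 7.77e-05, adjusted p = 0.67), the smallest p among 13800 genes. edgeR called 0 of these genes (0.00%), with 525 at an unadjusted p under 0.05, and DESeq2 called 21, none of them a transporter.

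Among the 20 rats under 100 mg/dL, a limit set after the values were seen, Slc16a1 ran from 471 CPM over a median of 727 CPM to 1149 CPM. In the 3 rats at 117 to 147 mg/dL it was 1017, 1710 and 1393 CPM (T407M, T411M and T445F). In the 5 rats over 200 mg/dL it was 689 CPM in T370M, 1373 in T391M, 1276 in T392F, 1374 in T446M and 3117 in T389M. Thus 6 of the 8 rats at 100 mg/dL or more lay above every rat under 100 mg/dL, and T370M and T407M did not.

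The rat with the highest glucose, T389M, weighed on the slope. Without T389M the slope was 0.26 (SE 0.10, edgeR p = 0.0146, adjusted p = 1.0). It was 0.25 (SE 0.11) in the 24 normal rats, 0.33 (SE 0.10) in the 12 males, 0.33 with the pre-dropout group as a further covariate, and 1.26 (SE 0.35, edgeR p = 0.000907, adjusted p = 0.69) in the 23 rats at 200 mg/dL or less. These last fits were chosen after the data were seen. Slc16a1 was called with no filter on low counts (adjusted p = 0.0380) and with sex and the endothelial marker level as covariates (adjusted p = 0.0358), and over all 19 other settings the adjusted p of edgeR, DESeq2 or limma ran from 0.0358 to 1.0.

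MCT1 is also made outside vessels, for example in the pigment epithelium, so other markers were set beside it. The summed level of 9 pigment epithelial markers was 1.29 to 107 TPM (median 26.9) in the 5 rats over 200 mg/dL and 0.0472 to 703 TPM (median 17.98) in the rest. The single markers did not go one way. Rpe65 and Best1 were without counts in all 5 of these rats, but also in 15 and 21 of the other 23, whereas Rgr was without counts in 1 of the 5 and in 16 of the 23, and Rdh5 in 1 and in 8. The slope of Slc16a1 was 0.36 (adjusted p = 0.10) with sex and the mean of these markers as covariates, 0.37 (adjusted p = 0.17) with that of the rods and 0.33 (adjusted p = 0.25) with that of the glia, all 3 from edgeR and chosen after the data were seen.

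Bsg, the chaperone of MCT1, had a slope of 0.28 (SE 0.10, edgeR p = 0.0116, adjusted p = 0.99). It ran from 769 over 2319 to 5736 CPM in the rats under 100 mg/dL. In the rats over 200 mg/dL it was 2034 CPM in T370M, 2971 in T391M, 3809 in T392F, 7290.0 in T446M and 8886 in T389M, of which the last 2 exceeded every other rat. Without T389M the slope was 0.22 (SE 0.13). The ratio of Slc16a1 to Bsg TPM had medians of 0.517 over 200 mg/dL and 0.524 in the rest (exact permutation p = 0.793 over 98280 splits, adjusted p = 0.881).

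The slopes of the other 9 transporters lay between -0.16 and 0.14, with SE of 0.09 to 0.12. For the glucose carrier gene Slc2a1 the slope was 0.09 (SE 0.10), and its levels over 200 mg/dL, 1114 to 2786 CPM, fell within the 674 to 3756 CPM of the rest. Slco1c1 had a slope of 0.14 (SE 0.09) and Slc7a5 one of -0.16 (SE 0.12).

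**Figure D5:**
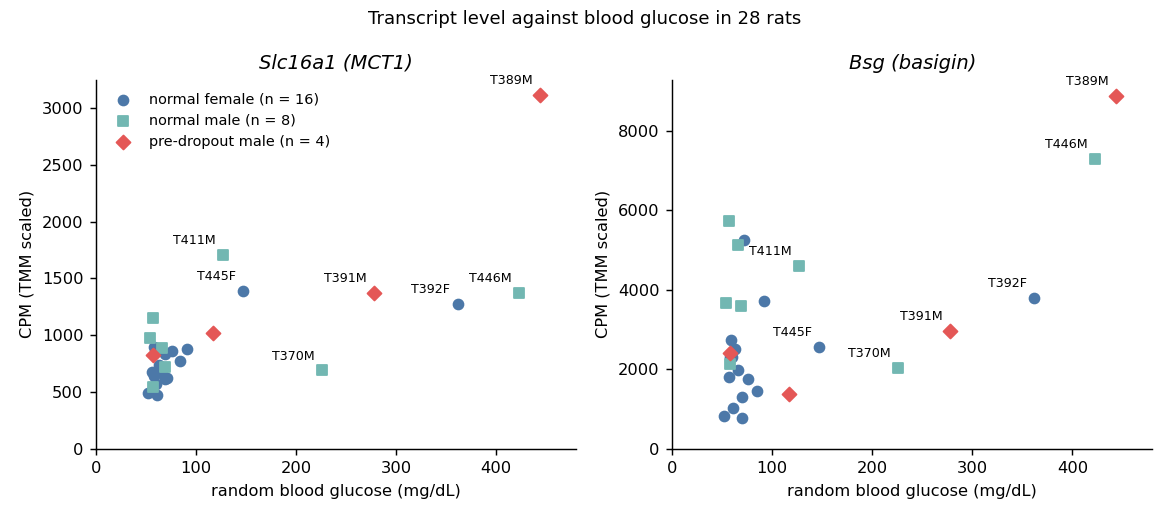
CPM of Slc16a1 (left) and of its partner Bsg (right) against random blood glucose in 28 rats, with 1 point per rat (circles, normal females, squares, normal males, diamonds, pre-dropout males). T389M is highest for both genes, at 3117 and 8886 CPM, and T411M and T445F, at 127 and 147 mg/dL, reach 1710 and 1393 CPM of Slc16a1.

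Taken as groups, the 5 rats over 200 mg/dL and the other 23 also gave no called transporter, and edgeR called 0 of 13800 genes (0.00%), with 881 at an unadjusted p under 0.05, while DESeq2 called 39. The log2 fold change of Slc16a1, with sex as a covariate, was 0.75 (SE 0.27, edgeR p = 0.00725, adjusted p = 0.31), and 0.41 without T389M (adjusted p = 1.0). Slc7a5 lay on the other side, at -0.68 (SE 0.36, edgeR p = 0.0656, adjusted p = 0.89). Its values over 200 mg/dL were 131, 139, 251, 262 and 301 CPM, and 11 of the 23 other rats lay above all 5.

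Over the 10 genes 3 were above 0, with a median of -0.13, against 56.0% of all genes and a median of 0.09. Scaling by DESeq2's size factors moved the median of all genes by 0.11, to -0.02, and that of the transporters to -0.25. With no sex covariate 5 of the 10 were above 0 (median -0.04), against 44.6% of all genes. With sex and the endothelial marker level as covariates 6 of the 10 were above 0 (median 0.02), against 54.6% of all genes. Rod markers were above 0 in 11 of 12 cases, with summed levels of 441 to 7795 TPM against 161 to 4486 TPM, and 10 of 10 pericyte markers were below 0, with 2532 to 9385 TPM against 2559 to 15299.8 TPM.

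Between the sexes, in normal rats, 9 of 10 transporters were higher on average in the 8 males than in the 16 females, with a median log2 fold change of 0.36, against 47.7% of all genes and a median of -0.04. None was called, beside 3 of 12162 genes (0.0247%) called by edgeR and 533 at an unadjusted p under 0.05. With DESeq2, which called 26 genes and no transporter, Tfrc was above 0 as well, beside 52.1% of all genes. On log2(TPM + 1) 8 of the 10 were above 0, against 25.9% of all genes.

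Abcb1a had the largest difference among the 10, 0.63 (SE 0.27, edgeR p = 0.0245, adjusted p = 1.0). It ran from 754 over 1414 to 3229 CPM in the males and from 442 over 977 to 1694 CPM in the females, and 3 males lay above every female. Slco1a4 followed with 0.58 (SE 0.30) and Mfsd2a with 0.46 (SE 0.31). Tfrc was at -0.04 (SE 0.29). Bsg, which is no transporter, was at 0.93 (SE 0.30, edgeR p = 0.00354, adjusted p = 0.68), and all 15 endothelial markers were above 0, with a median of 0.41.

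Other genes of the barrier were set beside the 10 in the pre-dropout comparison, where edgeR called none of them. Of 23 other barrier transporters in the tables, 14 were above 0, with a median of 0.12. The smallest unadjusted p among them belonged to the zinc carrier gene Slc39a8, at 0.69 (SE 0.38), and to Abcc1, at -1.63 (SE 1.02). Of 17 partner subunits and regulators tested, 11 were above 0, and Emb (-2.90, SE 1.78), another chaperone of monocarboxylate carriers, and Hfe (0.60, SE 0.57), which binds the transferrin receptor, came first by p.

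Of 11 junction genes 9 were above 0, with Cgn at -2.57 (SE 1.75) and Tjp1 at 0.36 (SE 0.28). Of 15 genes of the Wnt and norrin pathway, which sets up the barrier, 11 were above 0, with Lrp5 at 0.38 (SE 0.30) and Apcdd1 at 0.58 (SE 0.64). The caveolar genes Cav1 and Cav2 were at -0.12 and -0.08 (SE 0.28 and 0.34). Among 11 other glucose and monocarboxylate carriers 3 were above 0 and the median was -1.10. Their summed level was low, 46.7 to 96.2 TPM in pre-dropout and 52.7 to 318 TPM in normal rats. Slc2a3, the glucose carrier gene of neurons, was at 12.8 ± 8.98 TPM (SD, n = 28). The ratio of Slc2a1 to Slc2a3 TPM had medians of 63.7 and 21.8 in the 2 groups, a difference that did not pass the exact permutation test (p = 0.242, adjusted p = 0.605).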

How the data were processed

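RNA was isolated by the authors from the retinal vasculature of 28 Nile rats and sequenced with their LM-seq protocol, 1 library per rat. The authors deposited expected counts, which are estimates with fractions and not scaled between libraries, and TPM. Both tables carry mouse gene symbols. They were taken as the output of the authors' comparative pipeline, which needs no Nile rat genome, and values mapped to that genome were not used here. No sequences or coordinates are given, since the counts were not assigned on the Nile rat assembly.

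Groups followed the density label and the limits of the study's methods (below 16 and 17 to 18 per mm2), and mg/dL was taken from those methods. Counts were rounded, scaled by TMM, filtered by filterByExpr (minimum count 10) and tested by the quasi-likelihood method of edgeR 4.0.16 under R 4.3.3, with p-values adjusted over all genes tested after Benjamini and Hochberg. SE was derived from the F statistic. EBSeq, which the authors used, was not installed. With EBSeq and counts mapped to the Nile rat genome, the authors reported upregulated genes in the pre-dropout group. The calls given here come from another test and other counts and do not repeat theirs. The slopes on density and glucose needed no minimum fold for a call. Alternatives used DESeq2 1.42.0, limma 3.58.1 and the settings of the closing section. The edgeR fits were first tested on simulated counts, and the other tests were not. Permutation tests ran in Python 3.11.15 with NumPy 2.4.6 and SciPy 1.17.1. P-values measure the spread between rats, which are separate animals.

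Named genes were the 10 transporters, the partners and paralogs Bsg, Txnip, Slc2a3, Abcb1b, Slco1a1, Slco1a5 and Slco1a6, of each barrier list the called genes or else the 2 with the smallest p in the pre-dropout comparison, a few cell markers, and for each transporter the genes most like it (at least 10 counts in at least 24 libraries). Others, such as Rpe65, Best1, Rgr and Rdh5, were named after their values were seen. The members and the 17 other gene lists were chosen with earlier results of these data known. The tables held 23 of 24 other barrier transporters, 3 of 6 transcytosis genes, 7 of 10 erythrocyte markers and all genes of the other lists.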

Additional observations from a re-analysis of the deposited data

Results flagged for a closer look

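Among the 5 rats over 200 mg/dL, T389M lay far from the others for 2 of the 10 transporters. Its Slc16a1 level was 3117 CPM, against 1374 CPM in the nearest rat, T446M, and the gap was 0.718 of the range of the group, above Dixon's limit of 0.71. Its Mfsd2a level was 176 CPM, against 112 CPM in the nearest rat, a gap of 0.898 of the range. T389M had the highest glucose of all rats and was also a pre-dropout rat. In the whole set of normal rats Mfsd2a reached 276 CPM, so 176 CPM was not extreme there. The test covered 30 sets of rats (each gene in the pre-dropout rats, the rats over 200 mg/dL and the normal males), and chance singles out about 1 in 20.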

How the results depend on the processing

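No transporter was called in any comparison under any setting, except Slc16a1 on blood glucose, where the count of called members was 1 with no filter on low counts and 1 with sex and the endothelial marker level as covariates. The order of the genes by TPM was the same in all settings, with 2 neighbouring pairs not differing in normal rats alone. All of these settings used the same TPM values, so they could not show how far the order rests on the assigned lengths. By mean CPM, Slc2a1 (1810) and Abcb1a (1352) came before Slco1a4 (975).

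Several members changed sign. Against normal rats, Slc7a5 of the pre-dropout rats was at -0.035 with DESeq2 size factors, -0.035 with DESeq2 and -0.010 with the rod markers as a covariate. With sex as a covariate Slc2a1, Mfsd2a, Slco1a4 and Slc7a5 were at -0.0087, -0.17, -0.069 and -0.17, and within the males at -0.025, -0.18, -0.10 and -0.19. With the endothelial covariate Slc2a1, Mfsd2a, Slco1a4, Abcg2 and Slc7a5 were at -0.17, -0.15, -0.072, -0.10 and -0.34. On log2(TPM + 1) the density slopes of Slc16a1 and Tfrc were 0.094 and 0.14, Tfrc over 200 mg/dL was at 0.016, and Slco1c1 in males was at -0.040. Tfrc in males was at 0.049 with DESeq2 size factors, 0.051 with DESeq2 and 0.067 without the libraries under 1e+06 counts.

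With no sex covariate Slco1a4 had a glucose slope of 0.020, and over 200 mg/dL Slco1a4 was at 0.0020 and Tfrc at 0.032. With sex and the endothelial markers Slco1a4, Slc3a2 and Tfrc over 200 mg/dL were at 0.018, 0.031 and 0.024. In settings chosen after the data were seen, the glucose slopes in rats at 200 mg/dL or less were 0.53 for Mfsd2a and 0.32 for Slc7a5, against -0.08 and -0.16 over all rats, and they were 0.019 for Slco1a4 and 0.00072 for Abcg2 with the rod markers and 0.036 for Slco1a4 with the pigment epithelial markers. The cause of these changes was not tested.

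When 1 pre-dropout rat at a time was left out, Slc2a1 ranged from -0.0086 to 0.35 and Slc7a5 from -0.24 to 0.22. With each rat over 200 mg/dL left out, the group values of Slc2a1, Slc3a2 and Tfrc ranged from -0.15 to 0.25, -0.25 to 0.022 and -0.18 to 0.13, and the glucose slopes of Slc3a2 and Tfrc from -0.020 to 0.074 and -0.12 to 0.020.

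Over all genes, where edgeR called 0 in the first 4 comparisons, DESeq2 called 7, 0, 21 and 39 (pre-dropout, density, glucose slope, glucose groups) and edgeR with no filter 72, 45, 152 and 1. limma-voom called 4 and the endothelial covariate 32 in the pre-dropout comparison, the endothelial covariate 7 and normal rats alone 2 on glucose. Between the sexes edgeR called 3, DESeq2 26 and limma on log2 TPM 7. The SE of the transporters' log2 fold changes between pre-dropout and normal rats, 0.27 to 0.37, limits the size of change that can be told from the spread between rats. No paired analysis was possible because each library came from a separate animal and the labels do not match rats between groups.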

Other observations

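Txnip, a gene induced by glucose in many cells, was at 145 ± 63.5 CPM (SD, n = 5) over 200 mg/dL and at 98.9 ± 74.9 CPM (SD, n = 23) in the rest, and the ranges overlapped, with the highest level, 333 CPM, in the normal rat T430F. Among the paralogs that can share reads with the transporters, Slco1a1 ran from 28.8 over 73.3 to 174 CPM in the normal males and from 15.5 over 36.5 to 66.0 CPM in the normal females, with a log2 fold change of 1.2 (SE 0.39, edgeR p = 0.00446, adjusted p = 0.79). Slco1a5 was at 0.43 in the same comparison, and Abcb1b at -0.05 beside 0.63 for Abcb1a. The ratio of Slco1a4 to Slco1a5 TPM had medians of 1.64 in pre-dropout and 1.82 in normal rats (exact permutation p = 0.611, adjusted p = 0.881), and that of Abcb1a to Abcb1b medians of 12.8 and 10.8 (exact permutation p = 0.780, adjusted p = 0.881).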
